A study of Rattus norvegicus with 108 samples.

Results

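The hemoglobin and heme synthesis genes described here are 4 of the 19127 genes in single-cell count tables of the rat dentate gyrus: Hba1, which encodes an alpha chain of hemoglobin, Hbb and Hbb-b1, which encode beta chains, and Alas2, the erythroid form of the first enzyme of heme synthesis. They were chosen by their measured values in these same cells, namely very high UMI shares in a few cells under the Granule label of the dorsal tables and a low level in every other type, so those levels are given as a description with no test. A UMI is a molecular tag that marks 1 captured transcript. The tissue was dentate gyrus, dorsal (dorDG) or ventral (venDG), taken as punches of unfrozen brain from male Long-Evans rats that were 2 months old when treatment began. Fluoxetine (FT) was given at 18 mg/kg for 6 weeks, and Sham rats drank plain water over the same time, with no genetic change in either group. The tables hold 1289 dorDG and 2058 venDG cells from 19 replicates, each pooled from several animals (4 dorDG FT replicates and 5 in each other group). A replicate held 42 to 384 cells and 220162 to 1523537 UMIs. The 27 10x reactions came from suspensions of whole cells or of nuclei, and no label says which reaction held which. Type labels were used for dorDG alone.

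Hemoglobin carries oxygen in red blood cells as a complex of alpha and beta chains, each of which holds a heme. Its chains and its heme are made in erythroid precursors of the bone marrow, where Alas2 supplies the first step of heme synthesis. Other cells start the same pathway with Alas1. Reticulocytes, the youngest red cells in blood, still hold globin mRNA after they have lost the nucleus.

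The promoters of the 4 genes are shown because the 3 globin rows and Alas2 were highest in the same few cells, and the windows before their starts can be compared. Each is the 150 bases before the annotated start, from RefSeq (assembly GRCr8, a later build than the rn5 of the count tables), 5′ to 3′ on the strand of the gene. Capitals mark 4 short words on either strand: the CACCC word, the CCAAT word, the TATA-like word ATAAA and the GATA-like word GATAA. Within Hbb the reverse and forward copies of the CCAAT word touch. The table row Hba1 was matched through an older name that RefSeq gives to both Hba-a1 and Hba-a2, and the promoter of Hba-a1 is printed.
Hba-a1 (chr10:15842581-15842730, minus strand): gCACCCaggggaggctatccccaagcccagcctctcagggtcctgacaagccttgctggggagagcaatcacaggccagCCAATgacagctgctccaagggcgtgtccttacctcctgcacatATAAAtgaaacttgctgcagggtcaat
Hbb (chr1:167663722-167663871, minus strand): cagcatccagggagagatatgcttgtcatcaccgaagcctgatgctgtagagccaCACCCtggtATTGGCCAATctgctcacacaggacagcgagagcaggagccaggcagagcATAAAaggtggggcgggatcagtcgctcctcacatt
Hbb-b1 (chr1:167643521-167643670, minus strand): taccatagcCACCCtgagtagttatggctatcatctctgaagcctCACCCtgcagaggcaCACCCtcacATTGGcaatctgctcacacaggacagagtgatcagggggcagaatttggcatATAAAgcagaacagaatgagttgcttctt
Alas2 (chrX:22895300-22895449, plus strand): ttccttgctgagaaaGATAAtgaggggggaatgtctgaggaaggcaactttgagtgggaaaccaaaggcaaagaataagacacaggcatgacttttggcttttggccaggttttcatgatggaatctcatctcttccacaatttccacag

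The 3 globin promoters each held the CACCC, the CCAAT and the ATAAA words, a combination found in 1.59% of 33469 rat promoter windows of the same length. The CACCC word was in 35.2% of the windows, the CCAAT word in 23.5% and the ATAAA word in 25.7%. The 3 genes are related, so they are not independent draws from these windows. ATAAA began 27 bases before the start in Hba-a1, 36 in Hbb and 29 in Hbb-b1. The CACCC word of Hba-a1 lay at the far edge of its window, 149 to 145 bases before the start. The window of Hba-a3, a further alpha gene, held no CACCC. The Alas2 window held none of the 3 words and had 1 GATAA, a word present in 14.2% of all windows. The windows of Hbb and Hbb-b1 were identical at 67.9% of aligned positions (106 of 156). That of Hbb-b1 was closer to 2 further beta genes, with 95.4% identity to Hbb-bs and 92.8% to Hbbl1. A match is a string of letters and not a measured binding site.

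The globin UMIs sat in very few cells. Of 20506 Hba1 UMIs in dorDG, 84.6% fell in the 9 cells in which at least 10% of all UMIs came from Hba1, Hbb and Hbb-b1 together. The same 9 cells held 88.7% of 17650 Hbb UMIs and 86.2% of 3542 Hbb-b1 UMIs. In venDG 19 of 2058 cells passed this limit, and they held 89.2% of 39751 Hba1 UMIs, 94.4% of 30928 Hbb UMIs and 93.3% of 7152 Hbb-b1 UMIs. The cells at or above the limit are called globin-rich cells from here on. They are a class cut from a summed share, not a type given by the study.

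Alas2 was far rarer than the globin rows and lay largely in the same cells. Its 57 dorDG UMIs came from 20 cells, with 43 UMIs in 7 of the 9 globin-rich cells and 14 UMIs in 13 of the other 1280. Its 115 venDG UMIs came from 32 cells, with 96 in 17 of the 19 globin-rich cells and 19 in 15 of the other 2039. A globin-rich dorDG cell held a median of 4 Alas2 UMIs (0 to 11), and a globin-rich venDG cell a median of 5 (0 to 14). Of the other cells, 1.02% in dorDG and 0.736% in venDG had an Alas2 UMI, at a median depth of 3931 and 3332 UMIs against 8148 and 9114 in the globin-rich cells.

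Few cells lay near the limit. In dorDG 541 cells had no UMI of the 3 globin rows, 735 had a share above 0 and under 1%, 4 had 3.40 to 7.35%, and the 9 globin-rich cells had 42.6 to 52.2% with a median of 46.4%. In venDG 765 cells had none, 1271 were under 1%, 3 had 2.47 to 9.91%, 4 had 15.4 to 27.1% and 15 had 38.9 to 49.4% with a median of 45.8%. The 4 venDG cells between 10% and 30% differed in make-up from the 15 above them, with 2588 to 4524 detected genes against 500 to 1561. Their summed endothelial markers had a median of 37.5 per 10000 UMIs outside the globin rows, against a median of 0 in the venDG cells under the limit. No doublet caller was run, and whether 2 cells shared a droplet was not tested.

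**Figure D1:**
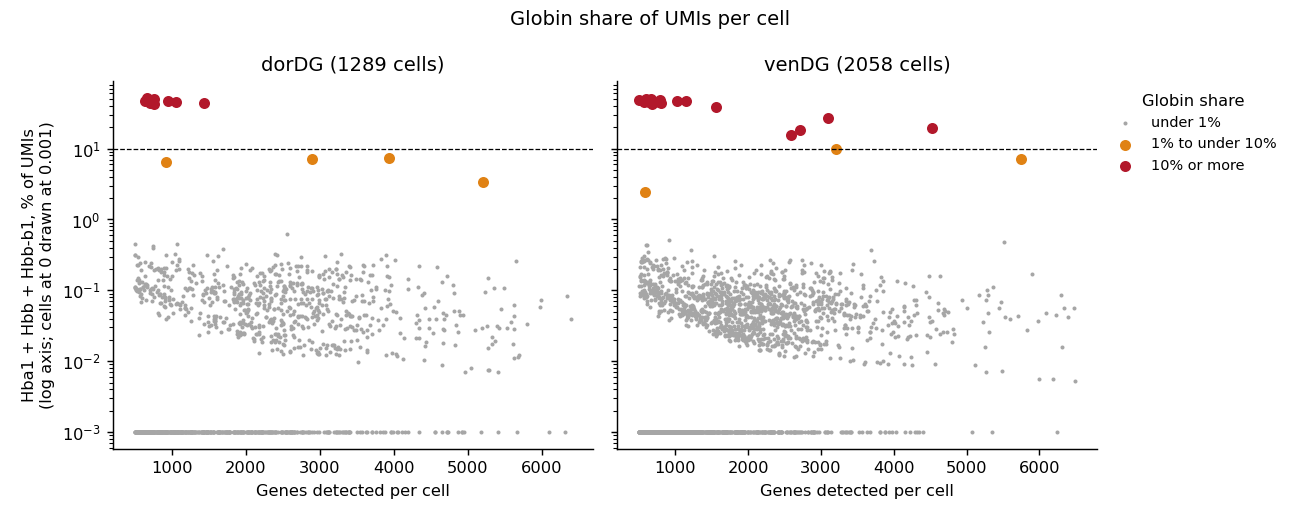
Each point is 1 cell, with the number of detected genes on the horizontal axis and the percentage of its UMIs from Hba1, Hbb and Hbb-b1 on the vertical log axis (cells at 0 drawn at 0.001), for dorDG and venDG. The 9 dorDG globin-rich cells form a tight group at 42.6 to 52.2% with 635 to 1427 genes, and in venDG 4 cells lie between that group and the cells under 10%.

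The globin-rich cells had few detected genes and a low ribosomal share. The 9 dorDG cells had 5797 to 13786 UMIs but 635 to 1427 genes (median 751), against a median of 3931 UMIs and 2011 genes in the other dorDG cells. Cytosolic ribosomal protein genes made up 0.386 to 1.31% of their UMIs (median of the other cells 3.98%), and mitochondrially encoded genes 2.44 to 6.56% (median of the others 5.76%). In the 15 venDG cells at or above 30% the ribosomal share was 0.310 to 2.48%. The methods of the study name a minimum of 1000 genes per cell, and 7 of the 9 dorDG and 12 of the 19 venDG globin-rich cells lay below it, as did 857 of all 3347 cells.

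Further globin copies took most of what was left. The tables also hold Hba2, a second alpha row, and 3 rows named only by gene ID that RefSeq lists as Hba-a3 (LOC287167), Hbb-bs (LOC689064) and Hbbl1 (LOC100134871). These 3 were added after their values were seen. All 7 globin rows together made up 73.2 to 85.5% of the UMIs of a globin-rich dorDG cell (median 80.7%) and 75.4 to 85.7% of a venDG cell at or above 30% (median 81.6%). In the 4 venDG cells between 10% and 30% they made up 25.7 to 50.3%. Each of these 4 cells thus adds more to pooled venDG counts outside the globin rows than a cell at or above 30%. Within the 7 rows of the dorDG globin-rich cells, Hba1 took 28.0% of the UMIs, Hbb 25.3%, Hbb-bs 20.1%, Hba2 15.3%, Hbbl1 5.61%, Hbb-b1 4.93% and Hba-a3 0.720%. The alpha rows summed to 44.1% there and to 41.5% in venDG. These copies are close in sequence, so the counting could have moved reads among them, and the order of levels among them is uncertain.

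Globins of other stages and tissues were near 0, apart from Ngb. Hbz, the embryonic alpha-like chain, had 3 UMIs in each region. Hbq1, the theta chain, had 5 UMIs in dorDG and 11 in venDG, of which 4 and 9 fell in globin-rich cells. Ngb, the globin of nerve cells, had 274 dorDG UMIs, of which 1 fell in a globin-rich cell, and 317 venDG UMIs, of which 0 did, counts too low to show a difference between globin-rich and other cells. Among cells under 1% globin, Ngb was highest in Oligodend1 (0.929 UMIs per 10000), OPC (0.756) and Oligodend2 (0.749), and InhibNeuron had 0.503. Cygb, found in fibroblast-like and other cells, had 29 and 60 UMIs, and Mb, the oxygen store of muscle, 6 and 3.

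All 9 dorDG globin-rich cells carried the Granule label, the study's name for neurons of the granule cell layer. They were 7.56% of the 119 Granule cells (95% Clopper-Pearson interval 3.52 to 13.9%, which covers counting error only). None of the other 11 labels held one. The largest of these, Endothelial, had 0 of 180 cells, which allows a share of up to 1.67%, and the smallest, BergGlia, had 0 of 43, which allows up to 6.98%. With the 9 cells in, the 3 globin rows made up 8.92% of all Granule UMIs. Without them they made up 0.177%.

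The 9 cells held few transcripts outside the globin rows, so their Granule label could be checked only in part. Prox1, the transcription factor that defines granule neurons, had 0 UMIs in them and 1.11 per 10000 in the other 110 Granule cells. Calb1, Dsp, C1ql2, Stxbp6 and Plk5 were also at 0, so 6 of the 9 markers on the list were not detected. Rfx3, Sema5a and Dock10 gave 8 UMIs in all. The 9 cells together held 15905 UMIs outside the globin rows, so a count of 0 allows up to 1.89 per 10000 of these. A Prox1 level like that of the other Granule cells was not detectable at this depth. Stxbp6, at 0 in the 9 cells and 3.30 per 10000 in the other Granule cells, was above this limit there. Sema5a and Dock10 were detected with 3 and 4 UMIs, at 1.89 and 2.51 per 10000 UMIs outside the globin rows. In the other Granule cells they were at 1.95 and 2.94 per 10000 UMIs. Over all dorDG cells under the limit they were at 1.74 and 2.97 per 10000 UMIs outside the globin rows. These levels are close, so Sema5a and Dock10 did not set Granule cells apart here. Over cells, the summed list per 10000 UMIs outside the globin rows had a median of 6.44 (0 to 16.4) in the globin-rich cells, 8.60 (0 to 55.9) in the other Granule cells and 5.58 (0 to 65.5) in all other dorDG cells.

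Erythroid markers other than globin were present but thin. Of 29 listed genes, 26 had a row, and 11 of these were detected in the dorDG globin-rich cells with 99 UMIs. Their sum had a median of 60.3 per 10000 UMIs outside the globin rows (25.9 to 96.6), against 8.69 (0 to 51.5) in the other cells. In venDG 15 of 26 were detected with 250 UMIs, and the medians were 74.0 and 8.11. The 250 UMIs include those of the 4 cells between 10% and 30%. Ahsp, the chaperone of free alpha chains, had 7 UMIs in 5 of the 9 dorDG globin-rich cells and 0 in the other 1280. In venDG it had 11 UMIs in 8 of 19 cells and 3 in the others. Bnip3l, which directs the removal of mitochondria as red cells mature, gave 32 UMIs, Prdx2, an antioxidant enzyme of red cells, 24, and Bpgm, which makes the 2,3-bisphosphoglycerate that tunes oxygen release, 12. Gata1, the factor that drives erythroid genes, Epor, the erythropoietin receptor, and the membrane and membrane skeleton genes Slc4a1, Gypc and Sptb were at 0 in the 9 cells, at the same depth limit. Klf1 and Hemgn, of the same list, gave 1 and 2 UMIs in these cells. In the venDG globin-rich cells Gata1, Epor, Gypc and Sptb were also at 0, and Slc4a1 had 5 UMIs in 5 cells. Some listed genes, Prdx2 among them, are also expressed in brain cells.

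Markers of other types in the globin-rich cells were mixed. The list of oligodendrocyte markers, which holds myelin genes such as Mbp and Mog, gave 664 UMIs, with a median of 422 per 10000 UMIs outside the globin rows against 68.7 in the other dorDG cells. In venDG the medians of that list were 132 and 34.3. The leukocyte and platelet list was at 0 for all 6 of its rows in dorDG, and 1 of 6 rows gave 2 UMIs in venDG. Ttr, made by the choroid plexus, gave 36 UMIs in 3 of the 9 dorDG cells and none in venDG. The part of free RNA in these values was not tested.

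The 10 genes with the highest ratio of UMI share in globin-rich cells to that in the other cells of the region were shared by both regions (10 of 10). In dorDG 161 genes met the minimum of 10 UMIs and 20% of the globin-rich cells, and the top 10 were LOC100910765, Hbb, Hbbl1, Hba2, Hbb-b1, Hba1, Hbb-bs, Cd52, Alas2 and Hba-a3. Hba1 was at 2230 UMIs per 10000 in the 9 cells and 5.21 in the others, a ratio of 428. Hbb stood at 2013 and 3.28, a ratio of 613, and Hbb-b1 at 392 and 0.806, a ratio of 487. Alas2, at 5.53 and 0.0231, had a ratio of 239. In venDG they came from 822 genes and again held Cd52 (15 UMIs against 0, at least 226-fold higher with 3 counts as the floor over the other cells). The venDG counts pool the 4 cells between 10% and 30%, which had more detected genes, with the rest. Cd52 encodes a small surface glycoprotein of lymphocytes and other blood cells, and it had 10 UMIs in 5 of the 9 dorDG cells. The ratio among venDG cells was 759 for Hbb, 627 for Hbb-b1, 375 for Hba1 and 228 for Alas2. These genes were picked for this ratio, so it has no test.

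Most genes of heme synthesis outside Alas2 were low in every cell. The 8 listed genes had 40 to 272 UMIs each in the dorDG cells under the limit. Alas1, the form of the first enzyme found outside the erythroid line, led with 272 UMIs, and Urod followed with 175. Fech, the enzyme of the last step, which puts iron into heme, had 7 UMIs in 5 of the 9 dorDG globin-rich cells and 21 in 10 of the 19 in venDG, where its ratio to the other cells was 5.85. The other 7 genes of the list gave 3 UMIs in all in the dorDG globin-rich cells, 1 of them from Alas1. By type, Alas1 was highest in Microglia1 (1.14 UMIs per 10000), Endothelial (1.05) and Mossy (1.02), where Alas2 had 0, 0 and 4 UMIs.

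Heme and iron transport genes gave a like picture. Slc25a39, a mitochondrial carrier needed for heme synthesis, had 9 UMIs in 7 of the 9 dorDG and 24 UMIs in 14 of the 19 venDG globin-rich cells (ratio 4.42 in venDG). Tfrc, the transferrin receptor through which cells take up iron, had 4 UMIs in 3 dorDG and 22 UMIs in 5 venDG globin-rich cells. These venDG counts, like those of the heme synthesis genes, include the 4 cells between 10% and 30%, whose part was not separated. Tmem14c, which moves a heme precursor across the inner mitochondrial membrane, gave 2 and 4. Of the breakdown and scavenging genes, Lrp1, which takes up heme bound to hemopexin, gave 5 and 4 UMIs, and Hmox1, the inducible heme oxygenase, gave 3 and 1.

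The low globin level of the remaining cells had another make-up. Among dorDG cells under 1% globin, 2333 Hba1 and 969 Hbb UMIs gave a ratio of Hba1 to Hbb of 2.41. In the globin-rich dorDG cells that ratio was 1.11. In venDG the values were 3.28 and 1.22. The counts are 3′ tags, 1 per captured molecule, so no length correction was made. Over single globin-rich cells the ratio ran from 0.491 to 1.54 with a median of 1.2. Over replicates the ratio in cells under 1% ran from 2.03 to 7.0 in dorDG (n = 9) and from 1.72 to 8.40 in venDG (n = 10). It was above the ratio of the replicate's own globin-rich cells in 14 of the 14 replicates that had any. Over the 12 dorDG types it ran from 1.95 to 3.68. The second reactions of dorDG (described further on) gave only 25 Hba1 and 21 Hbb UMIs, a ratio of 1.19 and inside the span of single globin-rich cells. Those of venDG gave 114 Hba1 and 49 Hbb UMIs, a ratio of 2.33 and above that span. Within the 7 rows, Hba1 took 38.6% of the globin UMIs of dorDG cells under 1% and 41.9% in venDG, and Hbb took 16.0% and 12.8%. These are ratios over the members and have no test.

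**Figure D2:**
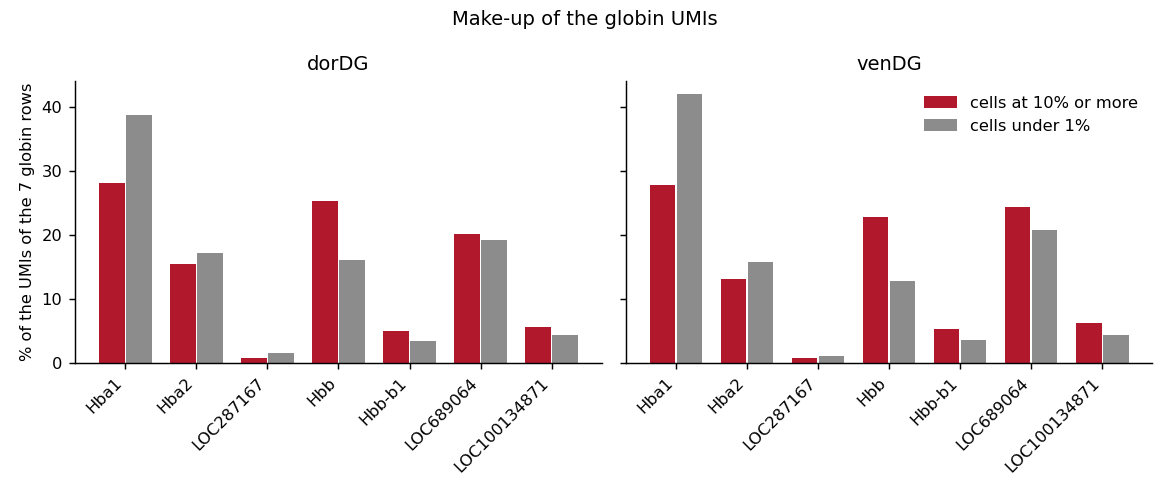
Bars give the percentage of the UMIs of the 7 globin rows that fell on each row, in globin-rich cells (red) and in cells under 1% globin (grey), for dorDG and venDG (LOC287167 is Hba-a3, LOC689064 Hbb-bs and LOC100134871 Hbbl1). Hba1 took 28.0% in dorDG globin-rich cells and 38.6% in cells under 1%, and Hbb took 25.3% and 16.0%.

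Across the dorDG types, globin in cells under 1% was low in every type, and the ranges of neighbouring types overlapped. The pooled Hba1 level was highest in Oligodend2, with 6.74 UMIs per 10000 (1.39 to 14.5 over 7 replicates), and lowest in ExcitNeuron, with 1.69 (0 to 2.01 over 4). Microglia1 had 5.88, Mossy 5.15, OPC 4.46, Microglia2 4.08, Endothelial 3.76, Oligodend1 3.55, AstroSub1 3.29, BergGlia 2.81, Granule 2.15 and InhibNeuron 1.78. Every type's range over replicates overlapped that of its neighbour in this order, and since the types come from the same replicates, differences within a replicate were not tested. Hbb ran from 2.84 in Oligodend2 to 0.458 in ExcitNeuron, with Mossy at 2.41 and Microglia1 at 2.12. Depth differed between types, with a median of 7050 UMIs in Oligodend2, 6372 in ExcitNeuron and 1229 in Granule. The mix of first and second reactions (described further on) in each type was not examined. Median Hba1 levels of these reactions were 4.79 and 0.215, so the order of types cannot be told apart from that mix.

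A few cells set the order once the limit was 10%. Endothelial rose to the first place for Hba1 with 10.7 UMIs per 10000, Granule to the second with 8.41 and Mossy to the third with 7.85. The 4 dorDG cells between 1% and 10% were 2 Endothelial cells, 1 Granule cell and 1 Mossy cell, and without them these levels were 3.76, 2.15 and 5.15. Hbb in Mossy fell from 10.7 to 2.41 with 1 cell left out.

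The share of cells with at least 1 Hba1 UMI was above 0 in every type. Among cells under 1%, 81.1% of Oligodend2, 79.4% of Microglia1, 34.5% of ExcitNeuron and 28.4% of Granule cells had one. With each cell thinned to 1000 UMIs the shares were 42.1%, 39.1%, 11.8% and 15.8%, over 91, 104, 53 and 69 cells. ExcitNeuron, with a median depth of 6372 UMIs against 7050 in Oligodend2, had the lowest thinned share. Thinning does not correct for the mix of reactions in each type. Alas2 had 12 UMIs in all dorDG cells under 1% and 0 in Endothelial, Microglia1, BergGlia, ExcitNeuron and Oligodend2 cells.

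**Figure D3:**
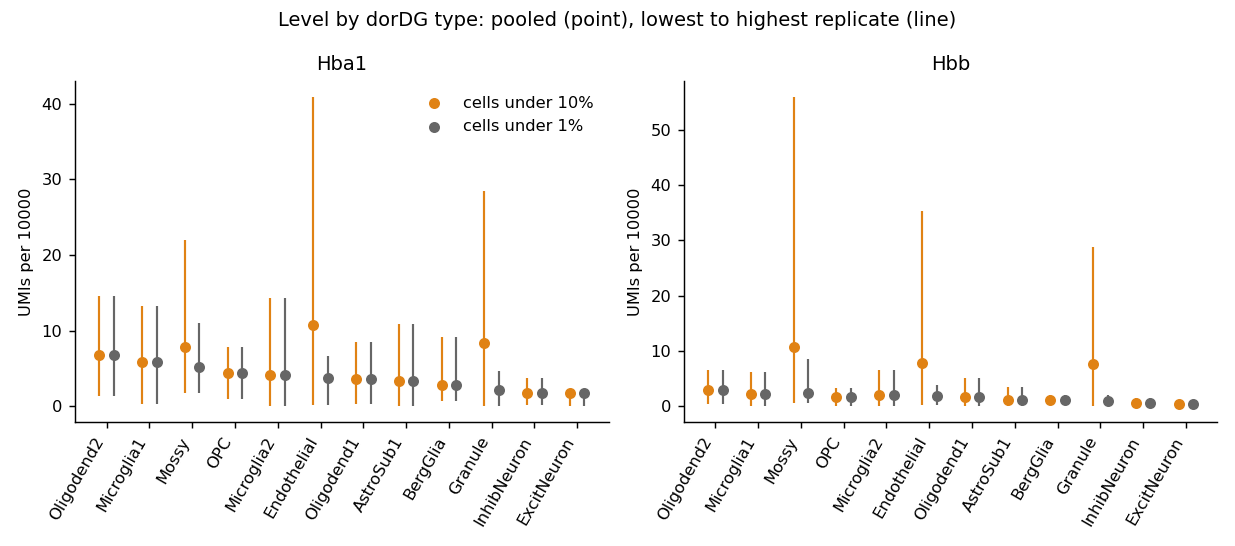
Points give the pooled level of Hba1 and Hbb by dorDG type in UMIs per 10000, and lines run from the lowest to the highest replicate with at least 5 cells, for cells under 10% globin (orange) and under 1% (grey). The orange points of Endothelial, Granule and Mossy stand at 10.7, 8.41 and 7.85 for Hba1, and the grey ones at 3.76, 2.15 and 5.15, inside the ranges of the other types.

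The genes whose pooled level over the 12 types followed that of Hba1 most closely were Hba2 (Pearson r = 0.964), Hbb (0.947), Ptpn22 (0.930), Hbb-bs (0.929) and Mrpl30 (0.884), out of 4301 genes and over cells under 10%. The 12 points share libraries and differ in depth, and the globin rows also share the few cells between 1% and 10%. Ptpn22 encodes a phosphatase of immune cell signalling and Mrpl30 a protein of the mitochondrial ribosome. Among cells under 1% the 5 closest were Hbb-bs (0.968), Hba2 (0.967), Hbb (0.965), AABR06081341.1 (0.922) and LOC100360645 (0.920), and neither Ptpn22 nor Mrpl30 was among the first 12.

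The design asks whether fluoxetine changed these genes, and no member was called in either region. In dorDG, Hba1 summed over all cells was 31.2, 25.1, 80.5 and 30.2 UMIs per 10000 in FT replicates 1, 2, 4 and 5. The Sham replicates had 14.6, 89.3, 2.16, 41.1 and 0.389. FT replicate 4 and Sham replicate 2 stood above the rest, and the groups overlapped. Both of these replicates held 2 globin-rich cells, Sham replicates 3 and 5 held none, and the others held 1. A level summed over cells cannot tell fewer globin-rich cells from less globin RNA in each.

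In edgeR's quasi-likelihood test with Benjamini-Hochberg adjustment over all genes, 0 of the 3 dorDG members tested were called, where 28.6% of 4274 genes were. A gene was called at an adjusted p of at most 0.2 and a log2 change of at least 0.32 in size, the thresholds of the study. The log2 change of Hba1 was 0.48 (SE 0.99, adjusted p = 0.738), that of Hbb 0.50 (SE 1.16, adjusted p = 0.769) and that of Hbb-b1 0.36 (SE 0.99, adjusted p = 0.806). No member had an unadjusted p under 0.05, and DESeq2 also called 0. With the replicate number as a block, no gene was called in dorDG. Alas2, at 0.108 ± 0.0640 (SD, n = 4) UMIs per 10000 in FT and 0.0846 ± 0.0952 (n = 5) in Sham, was below the minimum mean of 0.5 and was not tested. Without Sham replicate 2 the Hba1 change was 1.66 (adjusted p = 0.190), past both thresholds. Fits that left out 1 replicate called 0 to 2022 genes in all, so a call in 1 of them is no mark of the globins. Without FT replicate 4 it was −0.08.

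Without the globin-rich cells the direction in dorDG was the opposite, and again no member was called. Among dorDG cells under 10%, Hba1 was 5.67, 3.39, 7.08 and 1.77 UMIs per 10000 in the FT replicates and 4.27, 14.1, 2.16, 9.13 and 0.389 in the Sham replicates. The log2 change was −0.41 for Hba1 (SE 0.71, adjusted p = 0.690), −0.33 for Hbb (SE 0.98, adjusted p = 0.823) and −0.25 for Hbb-b1 (SE 0.85, adjusted p = 0.843). Here 0 of 3 members were called against 29.4% of 4312 genes. No member had an unadjusted p under 0.05, and DESeq2 called 0 of them. Hbb ran from 0.434 to 7.06 in FT and from 0.0555 to 9.08 in Sham, and Hbb-b1 from 0.139 to 2.05 and from 0.0555 to 2.32. A limit of 5% gave changes of 0.12 for Hba1, 0.68 for Hbb and 1.02 for Hbb-b1, and without Sham replicate 2 the Hba1 change was 0.25, none of them called.

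In venDG the values leaned lower in FT and again overlapped. Hba1 over all cells was 27.3, 72.9, 7.92, 101.5 and 1.54 UMIs per 10000 in FT replicates 1 to 5 and 36.2, 100.9, 231.7, 23.1 and 2.51 in Sham replicates 1 to 5. Sham replicate 3, the highest, held 3 globin-rich cells among only 42, or 7.14% (95% Clopper-Pearson interval 1.5 to 19.5%). The number of globin-rich cells was 2, 4, 0, 3 and 0 in FT and 2, 4, 3, 1 and 0 in Sham.

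The log2 change of Hba1 over all venDG cells was −0.90 (SE 0.97, adjusted p = 0.848 in edgeR), that of Hbb −1.29 (SE 1.14, adjusted p = 0.813) and that of Hbb-b1 −1.40 (SE 1.13, adjusted p = 0.798). None of the 3 members was called, against 0% of the 4079 genes tested, of which 236 had an unadjusted p under 0.05 and 18 were called in DESeq2. Without Sham replicate 3 the Hba1 change was 0.07. Alas2 was at 0.126 ± 0.136 (SD, n = 5) in FT and 0.225 ± 0.311 (n = 5) in Sham, and 0.772 in Sham replicate 3 alone.

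Hbb had the lowest unadjusted p of the members in the venDG cells under 10%. Its level there was 0.726, 0.901, 2.74, 0.980 and 0.350 UMIs per 10000 in FT replicates 1 to 5 and 5.96, 4.28, 1.13, 0.794 and 0.609 in Sham replicates 1 to 5. The change was −1.16 on the log2 scale (SE 0.60, p = 0.0702, adjusted p = 0.763 in edgeR), and that of Hba1 was −0.43 (SE 0.45, adjusted p = 0.840). Hbb-b1 and Alas2 were below the minimum. Neither member was called, against 0% of the 4169 genes tested, of which 241 had an unadjusted p under 0.05 and 16 were called in DESeq2. The 2 highest Sham replicates were numbers 1 and 2, and 3 of the 5 lay among the FT values.

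**Figure D4:**
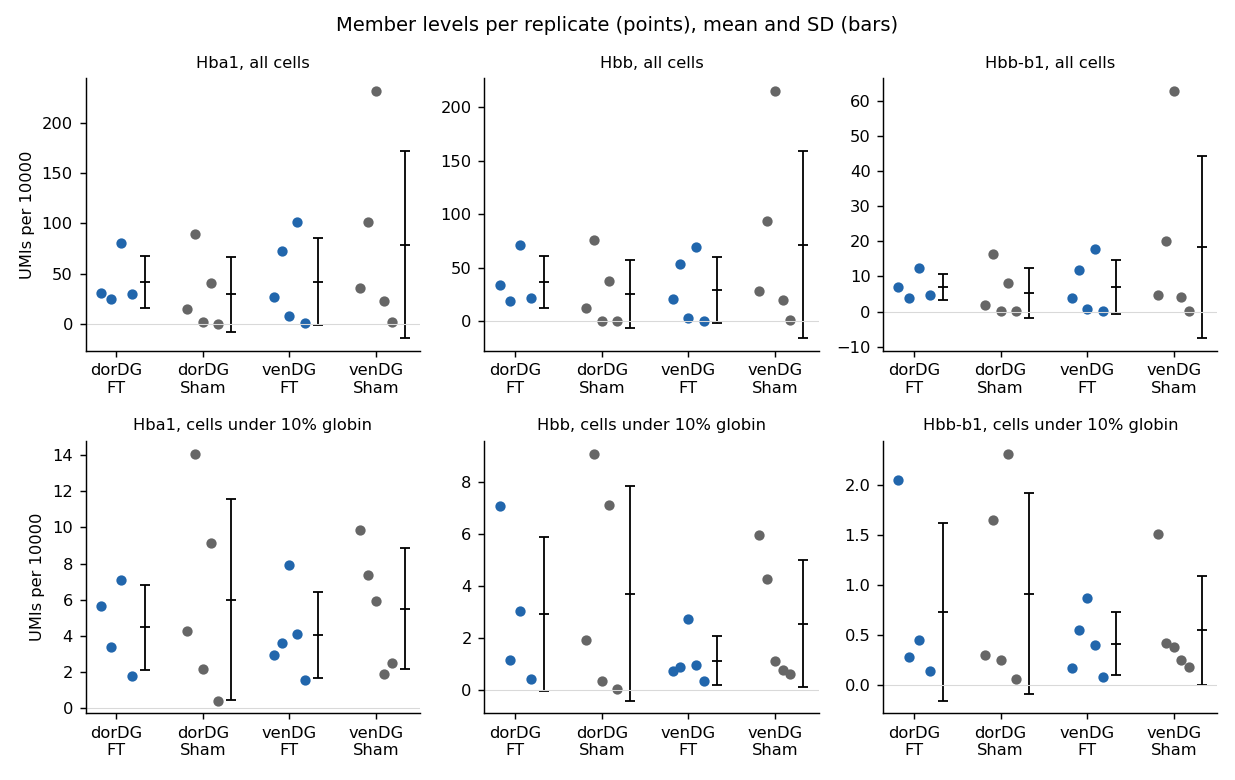
Points are replicates, with Hba1, Hbb and Hbb-b1 in UMIs per 10000 over all cells (top) and over cells under 10% globin (bottom), FT in blue and Sham in grey, and bars give the mean with 1 SD. The Hba1 level over all cells reaches 231.7 in 1 venDG Sham replicate with 3 globin-rich cells among 42, and FT and Sham points overlap in every panel.

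The treatment effect on the members was not found to differ between the regions. The difference of the log2 changes (venDG minus dorDG, cells under 10%) was 0.03 for Hba1 (SE 0.92, adjusted p = 0.993), −0.78 for Hbb (SE 1.26, adjusted p = 0.870) and −0.15 for Hbb-b1 (SE 1.13, adjusted p = 0.974) in edgeR's interaction test. No member was called, against 0% of 4245 genes, of which 385 had an unadjusted p under 0.05 and 4 were called in DESeq2. Replicate numbers pair the regions within a treatment, and the values above come from a fit that left this pairing out. With the pairing as a replicate block 391 genes were called, the Hba1 difference was −0.83 (adjusted p = 0.597) and again no member was called.

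The share of cells with a UMI of each member gave no call. With cells thinned to 1000 UMIs, Hbb was seen in 5.64% ± 2.1 of venDG FT cells (n = 5) and 12.4% ± 8.96 of Sham cells (n = 5; two-sided exact permutation p = 0.0952, adjusted p = 0.730 over 8 tests). Without Sham replicate 5 the difference was −9.01 percentage points (exact permutation p = 0.0317, adjusted p = 0.254), and without thinning it was −11.7 points (exact permutation p = 0.0397, adjusted p = 0.317). Hba1 was seen in 26.3% ± 8.12 and 28.9% ± 10.3 there, and in 29.1% ± 15.8 (n = 4) and 22.5% ± 14.4 (n = 5) in dorDG. Alas2 was seen in 0.114 to 0.175% of cells by group mean, and Hbb-b1 in 2.53 to 3.73%. Cells under 1000 UMIs were left out, 142 in dorDG and 187 in venDG.

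Of the heme genes around the members, 1 was called with treatment. No heme synthesis gene reached the minimum mean for a test in any comparison. In dorDG 2 transport and 4 breakdown genes were tested, and Blvrb, a biliverdin and flavin reductase also abundant in red cells, fell by 0.68 on the log2 scale (SE 0.31, adjusted p = 0.186 in edgeR), where 16.1% of all genes were called lower. That call was kept in 3 of 14 alternatives, and in 11 the adjusted p reached 0.207 to 0.644. Tmem14c changed by 0.47 (adjusted p = 0.249), Hmox1 by 0.44 (adjusted p = 0.439) and Tfrc by 0.02 (adjusted p = 0.966), none of them called. The median change was 0.25 over the 2 transport genes, 0.23 over the 4 breakdown genes and −0.04 over all genes. In venDG 0 of 5 were called, as with all genes there.

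A larger contrast lay between the reactions of 1 replicate. For 8 replicates the labels name a pair of reactions, and the one whose name sorts earlier is called the first here. Among cells under 1% globin, Hba1 was at 3.34 to 14.4 UMIs per 10000 in the first reactions (median 4.79) and at 0.0194 to 2.11 in the second (median 0.215). Hbb was at 0.857 to 6.89 (median 2.03) and at 0 to 1.03 (median 0.289), and Hbb-b1 at 0.192 to 1.03 and at 0 to 0.301. The first was above the second in 8 of 8 replicates for each of the 3. All 17 globin-rich cells of these replicates came from first reactions, which held 1042 of the cells, and none from the 784 cells of the second.

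In edgeR with the replicate as a term and cells under 10%, Hba1 was higher in the first reactions by 3.79 on the log2 scale (SE 0.88, adjusted p = 0.00125) and Hbb by 2.53 (SE 0.91, adjusted p = 0.0200). Hbb-b1 differed by 0.90 (SE 0.70, adjusted p = 0.252) and was not called. Thus 2 of the 3 members tested were called, where 84.2% of 4424 genes were called and 40.5% were called higher, so a call is no mark of the globins in this contrast. The median over all genes was −0.11. Of the other globin rows, Hba2 (3.40), Hbb-bs (2.89) and Hbbl1 (1.68) were called higher too.

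Under 10% the first was above the second in 7 of 8 replicates for Hba1, in 6 for Hbb and in 5 for Hbb-b1. Hba1 was at 13.4 in the second reaction of dorDG Sham replicate 2 and at 18.3 in that of venDG Sham replicate 1, each with 1 cell, of 7.20% and 7.16% globin. Without the cells above 1% these levels were 1.16 and 2.11. Without venDG Sham replicate 1 the Hbb-b1 difference was 1.63 (adjusted p = 0.0331), and without dorDG Sham replicate 2 it was 1.38 (adjusted p = 0.123), both past the thresholds. Fits that left out 1 replicate called 3658 to 3737 genes in all.

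**Figure D5:**
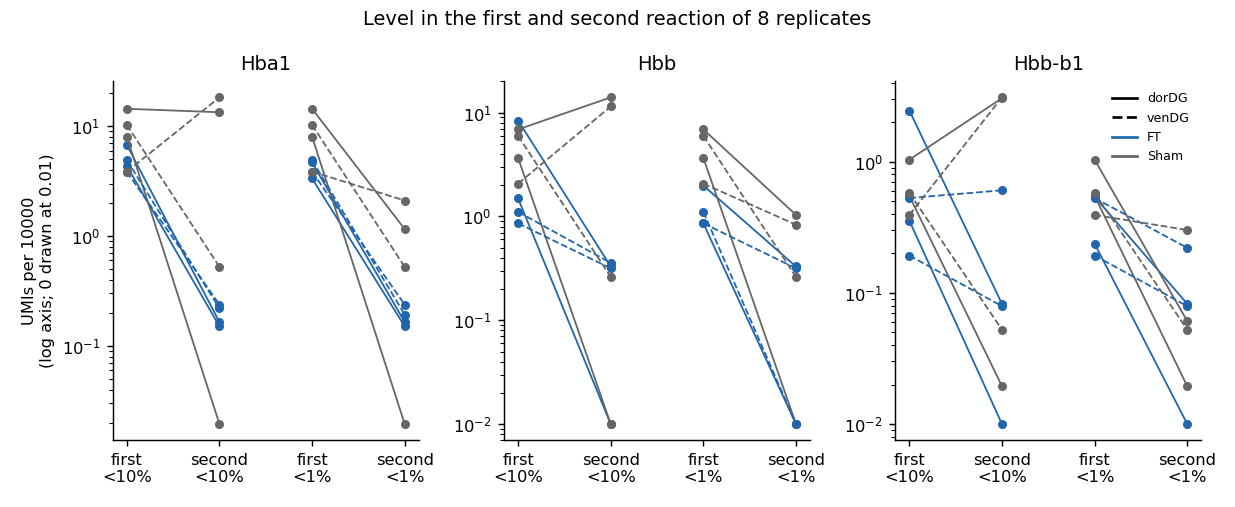
Lines join the first and the second reaction of each of 8 replicates, with the level in UMIs per 10000 on a log axis (0 drawn at 0.01), for cells under 10% globin (left pair of each panel) and under 1% (right pair), with FT in blue, Sham in grey, dorDG as full and venDG as dashed lines. Under 1% every line falls from the first to the second reaction, and under 10% Hba1 rises in 1 replicate, from 3.86 to 18.3 in venDG Sham replicate 1.

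The reactions also differed in depth and in ribosomal share. The median UMI count per cell was 3262 to 6241 in the first reactions and 1516 to 5323 in the second, and ribosomal protein genes made up 5.09 to 5.98% and 0.640 to 1.53% of UMIs. The part of depth and suspension in the globin difference was not tested. A Hba1 UMI was found in 69.7 to 96.6% of first-reaction cells, in 0.758 to 23.7% of second-reaction cells and in 17.2 to 85.3% of the cells of the 11 replicates with 1 reaction (cells under 1%). The lowest of these, 17.2%, was dorDG Sham replicate 5, and the next was venDG FT replicate 5 with 49.6%.

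Heme genes outside the globins differed between the reactions in both directions. Hmox1, which degrades heme and rises under oxidative stress, was higher in the first reactions by 5.18 on the log2 scale (SE 0.45, adjusted p = 8.44e-08 in edgeR), and Tmem14c by 1.96 (SE 0.24, adjusted p = 3.4e-06). Blvrb fell by 0.58 (SE 0.24, adjusted p = 0.0382). Tfrc, at 0.21 (adjusted p = 0.495), and Lrp1, at 0.27 (adjusted p = 0.143), were not called. Here 1 of the 2 transport genes and 1 of the 3 breakdown genes tested were called higher, against 40.5% of all genes, and Blvrb was the only one called lower, against 43.7%.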

How the data were processed

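The deposited tables hold UMI counts per gene and cell, which the authors made from 10x Genomics 3′ v2 libraries with Cell Ranger 2.1.0 on build rn5, per the labels, followed by Seurat 3. The authors' methods state that cells of low quality were removed, and so was a cluster, Endo2, that resembled Hba-positive cells. A supplementary note places the Hba-positive cluster in venDG. The deposited venDG cells still include 19 globin-rich cells, and whether any of them came from that cluster was not examined. The tables have 3517 columns, the number of cells the study kept. In venDG, 170 of 2228 column names end in a second suffix that no label explains (167 repeat a barcode), and these were left out. The 3347 cells used hold 3338 barcodes, and 9 are shared between reactions. The type column of the dorDG metadata was used as deposited. A replicate is all cells of 1 region, treatment and replicate number. The methods describe each replicate as a pool of animals, so p-values measure the spread between pools. They also name a minimum of 1000 genes, and 857 of the cells used lie below it. No doublet caller was run.

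The members and gene lists were chosen with earlier results of these data known. UMIs per 10000 were computed over all cells, over cells under 10% and over cells under 1% of UMIs from Hba1, Hbb and Hbb-b1. Summed counts were tested with edgeR 4.0.16 in R 4.3.3 (TMM, quasi-likelihood), leaving out genes whose mean level was under 0.5 UMIs per 10000, adjusted over all genes. A change was called at an adjusted p of at most 0.2 and a log2 change of at least 0.32 in size. DESeq2 1.42.0, other filters and limits, a replicate block, cells of at least 2% ribosomal UMIs and leaving out each replicate were alternatives. The scripts were tested on simulated data. Shares of cells with a UMI were compared by exact permutation (scipy 1.17.1) after thinning to 1000 UMIs.

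Named genes were the 4 members, the 2 most abundant and all called genes of 3 heme lists, the other globin rows, the 10 genes of the highest ratio between globin-rich and other cells (at least 10 UMIs and 20% of the globin-rich cells), and the 5 genes most like Hba1 over dorDG types (log2 of the level plus 0.1). Other genes were named to describe the marker lists or after their values were seen. Some listed genes are not reported here. Deviations of same-numbered replicates from their group means correlated at −0.20 to 0.36 between dorDG FT and Sham and at −0.13 to 0.25 between venDG FT and Sham, so these numbers were not taken as pairs. Between regions they correlated at 0.12 to 0.32 within FT and at 0.11 to 0.60 within Sham. There they were taken as pairs only in the replicate block, an alternative to the main test of the region difference. Intervals and floors cover counting error only, and the floor is 3 counts.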

Additional observations from a re-analysis of the deposited data

Results flagged for a closer look

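In groups of 4 or 5 replicates, 5 values stood apart from the rest of their group by Dixon's test, of 36 groups and measures examined. Chance gives about 1 in 20 only for normally distributed values. A few cells set many of these levels, and the measures share cells, so that rate may not hold here. Over all cells, Hba1 in dorDG FT replicate 4 was 80.5 UMIs per 10000, with the next replicate at 31.2, and this replicate held 2 globin-rich cells. Alas2 in venDG Sham replicate 3 was 0.772, with the next at 0.164, and this replicate held 3 globin-rich cells among 42. Among cells under 10% globin, Hbb-b1 in dorDG FT replicate 1 was 2.05 (next 0.451), Hbb in venDG FT replicate 3 was 2.74 (next 0.980) and Hbb-b1 in venDG Sham replicate 1 was 1.51 (next 0.420). Each of these 3 replicates held 1 cell between 1% and 10% globin, and without that cell the values were 0.461, 0.482 and 0.355.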

How the results depend on the processing

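Of 297 recomputed member changes, 255 kept direction and call, 36 changed direction and 5 gained and 1 lost a call. Type levels moved by less than the SD over replicates under 10%, an SD that holds the same single cells. At a limit of 1%, Endothelial Hba1 went from 10.7 to 3.76 UMIs per 10000 and Mossy Hbb from 10.7 to 2.41. The number of globin-rich cells stayed within 1.5 times at limits of 1%, 5% and 25% and with the suffixed venDG columns kept. The limit of 1%, the other limits for counting globin-rich cells, the suffixed columns and the restriction to first and single reactions were chosen after seeing the data, and the cause of the shifts below was not tested.

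Among all dorDG cells the FT change turned to −0.61 (Hba1), −0.31 (Hbb) and −0.25 (Hbb-b1) among cells of at least 2% ribosomal UMIs. Under 10% globin it turned to 0.12, 0.68 and 1.02 at a limit of 5%, and for Hbb-b1 to 0.021 in first and single reactions. The region difference turned to −0.83 for Hba1 with the replicate block, to −0.25 for Hba1 at a limit of 1% and to 0.25 for Hbb-b1 in first and single reactions. Between reactions, DESeq2 (2.19) and a limit of 25% (1.66) called Hbb-b1, and without the replicate block 1 member was called, Hba1 at 1.28 (adjusted p = 0.182), and Hbb differed by 0.67 (adjusted p = 0.50). The venDG share of cells with a Hba1 UMI differed by 0.10 percentage points without thinning, and that of Hbb by −11.7 points, past the unadjusted threshold.

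Calls over all genes in dorDG, 1221 over all cells and 1269 under 10%, were 1849 with DESeq2 (all cells), 344 and 362 with filterByExpr, 207 and 207 with no filter, and 0 with the replicate block, with cells of at least 2% ribosomal UMIs and with first and single reactions. In venDG they were 18 and 16 with DESeq2 and 3 and 3 with no filter, and for the region difference 4 with DESeq2 and 391 with the replicate block. The block changed no call of a member in these comparisons. The methods state that FT and Sham of 1 replicate were processed in parallel under the frozen tissue, and do not repeat it for the single-cell data. Reaction names run in blocks by replicate number that hold both treatments. Whether FT and Sham of 1 number shared a batch is not stated, so the block may be the fitting model for dorDG. By correlation, 1 of 4 dorDG and 2 of 5 venDG replicates were closest to their own number.

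Leaving out each replicate moved the FT change in dorDG from −0.077 to 1.66 (Hba1), −0.10 to 1.66 (Hbb) and −0.084 to 1.58 (Hbb-b1) over all cells, with 0 or 1 members called and 0 to 2022 genes. Under 10% it ran from −0.73 to 0.25, −1.25 to 0.39 and −1.61 to 0.40, with 0 to 1968 genes. In venDG over all cells it ran from −1.55 to 0.073 (Hba1), −1.93 to −0.27 (Hbb) and −2.15 to −0.056 (Hbb-b1), and under 10% from −0.84 to −0.097 (Hba1) and −1.82 to −0.59 (Hbb). The region difference ran from −0.67 to 0.37, −1.54 to 0.15 and −0.79 to 1.21, with 0 to 321 genes. Between reactions Hba1 ran from 3.17 to 4.56, Hbb from 1.89 to 3.31 and Hbb-b1 from 0.44 to 1.63. The share of cells with a UMI ran, in dorDG, from −0.61 to 12 points (Hba1), −2.50 to 6.33 (Hbb), −0.16 to 1.45 (Hbb-b1) and −0.11 to 0.0061 (Alas2), and in venDG from −5.46 to 0.36 (Hba1), −9.01 to −3.10 (Hbb) and −0.0053 to 0.076 (Alas2). Depth limits Alas2 most, with 172 UMIs in all cells.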
